A study of Homo sapiens with 9 samples.

Results

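The long last exons of human genes were examined in U251 cells, an established glioblastoma line, with the RNA-binding protein Musashi1 (gene MSI1) knocked down or left in place. A last exon was included if its gene had 4 or more exons in the deposited exon table, if it was 3000 nt or longer, and if it had at least 50 counts in each of the 6 RNA-seq libraries. These 3 criteria chose 1731 last exons, of 15689 last exons of such genes and of 206550 exons in the whole table. Length, exon number and counts are therefore descriptions of the set and not findings about it. The measure compared was the share of a gene's summed exon counts that lay in its last exon.

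The RNA-seq groups were 3 MSI1 knockdown libraries and 3 control libraries labelled wild type, all from the same line, and 3 further samples of wild-type cells gave MSI1 iCLIP lists. iCLIP maps the single nucleotides at which ultraviolet light crosslinks a protein to RNA, here with a rabbit monoclonal antibody against MSI1. The sources used here do not give how MSI1 was knocked down, what the control cells received or whether the replicates were separate cultures. A p-value therefore measures only how far these libraries spread, and that spread may be technical. The protocol text attached to all samples describes iCLIP and mentions replicates that were pooled before sequencing, whereas the files hold 3 separate libraries a group.

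MSI1 had 134, 195 and 90 gene counts in the knockdown libraries and 726, 688 and 244 in the control libraries. Its level was 3.51 ± 1.46 CPM (counts scaled to the library total) in knockdown cells and 13.8 ± 5.42 CPM in control cells (SD, n = 3 each). This was a log2 change of −1.97 ± 0.18 (SE), with an adjusted p of 0.00279 in the quasi-likelihood test of edgeR with the replicate number as a block and of 0.0699 without the block. Control replicate 3 had the lowest MSI1 level of its group, still above each knockdown library. MSI2, the close relative that binds similar sites, had 47.8 ± 1.14 CPM in knockdown cells and 48.1 ± 6.82 CPM in control cells. Exon counts summed to between 41850423 and 60776151 a library, and the long last exons held 9.37, 8.88 and 10.05% of them in the knockdown libraries and 9.09, 9.20 and 11.2% in the control libraries. Of the markers of the line, VIM, CD44, NES and SOX2 were all detected, VIM at 2442 ± 267 CPM in knockdown cells and 2579 ± 271 CPM in control cells. SOX2, a transcription factor of neural stem cells, was lower, at 89.9 ± 5.001 CPM in knockdown cells and 152 ± 15.02 CPM in control cells (adjusted p 0.00667 with and 0.0432 without the block in edgeR). EGFR, at 102 ± 3.94 CPM in knockdown cells and 151 ± 4.45 CPM in control cells, and CAV1 were called lower with the block only (adjusted p 0.00673 and 0.0372). None of 3 epithelial markers and 1 of 5 leukocyte markers passed the filter on low counts. That one, CD14, lay below 1 CPM, at 0.602 ± 0.138 CPM in knockdown cells and 0.458 ± 0.207 CPM in control cells. Of the markers of other cell types, 2 of 4 endothelial, 2 of 5 neuronal and 1 of 4 oligodendrocyte genes passed the filter. The endothelial receptor KDR had 22.6 ± 1.86 CPM in knockdown cells and 13.4 ± 0.755 CPM in control cells, and the synaptic gene SNAP25 had 3.94 ± 0.626 CPM in knockdown cells and 1.93 ± 0.765 CPM in control cells. Both were called higher with the block only (adjusted p 0.00980 and 0.0291 in edgeR). GAD1, an enzyme of inhibitory neurons, was not called, at 37.1 ± 1.33 CPM in knockdown cells and 39.4 ± 2.74 CPM in control cells. The part of these markers in the shares was not tested.

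The last exon of a messenger RNA usually carries the end of the coding sequence and most or all of the 3′ untranslated region (3′ UTR). The 3′ UTR ends where the transcript is cut and given its poly(A) tail, a little downstream of a signal that is most often AAUAAA or AUUAAA in RNA. A gene with several such signals can give messages with short or long 3′ UTRs, and a gene can also end at an internal exon and leave out its usual last exon altogether. The 3′ UTR holds sites for microRNAs and for RNA-binding proteins that set how stable a message is, how often it is translated and where in the cell it goes. Musashi1 is one of these proteins. It is known from neural stem cells and from glioma, and binds short single-stranded elements with a UAG core in 3′ UTRs.

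The sites below show the ends of 7 of the 9 last exons whose share was called by DESeq2 and the Musashi-type elements of the last exons with the most iCLIP positions. They were read by symbol from GENCODE release 29 transcripts (GRCh38), written as DNA with 10 bases on each side, and no coordinates were taken from that build. Capitals mark the polyadenylation signal nearest the transcript end in the first 7 lines and, in the last 4, the first Musashi-type word of the 3′ UTR. A Musashi-type word is GTAGT, its variant ATAGT, or a form with a second T before the AG, written GTTAGT and also ATTAGT.
H2AFV, last polyadenylation signal: atatgatggaATTAAAtatattctgt
PCDH7, last polyadenylation signal: gtctctgcaaATTAAAatataacatg
NRP2, last polyadenylation signal: ttactatttaAATAAAcattatacca
CYLD, last polyadenylation signal: tttctgtatcATTAAAattacatttt
MYO5A, last polyadenylation signal: aacttgtttaAATAAAgatatggata
PCDH15, last polyadenylation signal: atgtttcaaaAATAAAttttcatttg
CCDC50, last polyadenylation signal: tgaaatcctcAATAAAtactgccaag
SCD, Musashi element: aatcttctggGTAGTcccctgttga
CD44, Musashi element: ctatttatctGTAGTaaactattta
ADAM19, Musashi element: gggcctccttATAGTtctctgcaca
DCBLD2, Musashi element: ttttttaattATTAGTggtagtaata
In these 7 genes the last signal began between 17 and 32 nt from the end of the transcript. Earlier signals of the same kind were present in all of them. The 3′ UTR part of the last exon of CYLD, 5427 nt long, held 10 AATAAA or ATTAAA words, and that of MYO5A, 6410 nt long, held 9. H2AFV held 4 in 3353 nt. A word is a match of letters and not a site in use.

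Of the 1731 long last exons, 1702 matched a GENCODE gene by symbol, and 1428 (82.5%) had a GENCODE last exon within 5% of the deposited length that held 3′ UTR. In those, a median of 95.8% of the exon was 3′ UTR, so counts in the last exon were mostly counts in the 3′ UTR. An exception among the longest exons was AHNAK2, which encodes a giant scaffold protein and whose last exon of 17546 nt was only 4.27% 3′ UTR. An AATAAA or ATTAAA lay in the last 50 nt of 88.1% of the long last exons and of 84.4% of the 5593 matched last exons under 3000 nt. On the sense strand, AATAAA occurred 0.990 times per kb of 3′ UTR in the long last exons and 1.44 times per kb in the shorter ones. In windows of equal length, the first 1000 nt of 3′ UTR, AATAAA was present in 43.8% of 1412 long ones and 45.8% of 2575 shorter ones. For the Musashi-type words, GTAGT was in 47.3% of these windows against 44.4%, and ATAGT in 56.0% against 48.8%. The other forms were nearly as frequent in both sets, GTTAGT in 13.1% against 13.4% and ATTAGT in 19.3% against 18.5%. The AU-rich word ATTTA, found in many short-lived messages, was in 78.7% against 75.9%. The GC content of the 3′ UTR had a median of 39.1% in the long set and 41.7% in the shorter set.

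The long last exons ran from 3002 to 17969 nt, with a median of 4115 nt and quartiles of 3457 and 5201 nt, and their genes had a median of 10 exons. Of the exons just inside the length limit, CLCN6 had 3002 nt, and CDK13 and SLC7A5 3003 nt. Just outside it were NACC1 and HMGB3 at 2999 nt and TBC1D25 at 2996 nt. By lowest count, AKAP6 (50), DOCK3 (51) and ALX4 (52) lay just inside, and ANO3, DGKE and FAM131B, each at 49, just outside. The 5 longest were AAK1, AHNAK2, LPP, QKI and KSR2. Of these, LPP, a focal adhesion protein with a last exon of 16321 nt, had shares of 91.4, 89.7 and 92.9% in the knockdown libraries and 87.0, 87.6 and 94.2% in the control libraries. QKI, an RNA-binding protein of glia, had shares of 78.0, 77.9 and 79.6% in knockdown cells and 77.1, 77.6 and 82.6% in control cells. In both genes control replicate 3 had the highest share of all 6 libraries, and the groups overlapped.

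The median long last exon took 64.4% of its gene's exon counts in knockdown cells and 63.8% in control cells, as the mean of the 3 libraries for each exon. In control cells the quartiles were 47.5 and 78.8%, 1241 exons were above 50%, and 46 were below 20%. Per kb, the last exon had a lower level than the rest of its gene, with a median log2 ratio of −0.48 in control cells, and −0.40 in the 7018 shorter last exons with the same count limit. At the low end stood genes with many exons or with several known ends. HTT, which encodes huntingtin and has 67 exons, had 10.3, 10.4 and 7.19% of its counts in the last exon in knockdown cells and 8.38, 7.83 and 4.34% in control cells. LAMP2, a lysosomal membrane protein, had 9.83, 9.78 and 10.4% in knockdown cells and 8.70, 8.64 and 9.93% in control cells. At the high end, FPGT, PALM2 and ZFP91 had all their exon counts in the last exon in every library, and 19 long last exons could not be tested because the rest of the gene had too few counts. Of the 1731, 81 overlapped an exon of another gene, and since the strand setting of the counting is not given, reads cannot be assigned with certainty there.

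Across the whole set, the share of the last exon did not differ between knockdown and control cells beyond the spread of the replicates. The edgeR quasi-likelihood test compared the count of the last exon with the count of the rest of the gene in the 6 libraries, with the replicate number as a block. It called 0 of the 1712 long last exons that could be tested, at an adjusted p below 0.05 over all 122295 exons fitted, and 0.0% of those exons. The lowest adjusted p of a long last exon was 0.139, for H2AFV. At an unadjusted p below 0.05 there were 118 long last exons (6.89%), 83 with a higher share in knockdown cells and 35 with a lower one. The same threshold was passed by 5.85% of all last exons tested and by 4.83% of all exons, so the long set stood little above its background. Without the block there were 61 long last exons, where 2.57% of all last exons and 1.99% of all exons passed. DESeq2, fitted to the 10536 last exons alone, called 9 long last exons, 5 with a higher and 4 with a lower share, where 0.0854% and 0.104% of all last exons tested were called. edgeR fitted to last exons alone called 1, H2AFV, and limma, edgeR's diffSpliceDGE and edgeR without the block called 0. Of 66 changes of the ratio by 1.5-fold planted in simulated data, limma recovered 0 and diffSpliceDGE 0. Of 67 planted 2-fold changes, limma recovered 24 and diffSpliceDGE 1. A count of 0 from these tools thus says little about changes of that size.

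The size of the differences was small for most members. The log2 change of the ratio of last exon to rest had a median of 0.03, 5% of the exons lay below −0.32 and 5% above 0.34, and the median standard error was 0.13. The change was beyond 0.5 in either direction in 60 exons and beyond 1 in 4. These 4 were H2AFV and PCDH7, described below, KIAA1644 and LOC400931, a pair named after their values were seen. KIAA1644 had shares of 97.8, 95 and 95.7% in knockdown cells and 86.9, 94.2 and 91.2% in control cells, a log2 change of 1.33 ± 0.53 (SE) that rests on few counts outside the last exon. LOC400931 overlaps microRNA genes, with shares of 96.2, 97.6 and 94.5% in knockdown cells and 91.9, 92.5 and 90.5% in control cells. In 139 exons every knockdown share was above every control share, and in 32 every one was below. Of all last exons tested, 5.24% and 2.54% did so.

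The 3 replicate pairs did not move together. The median log2 change of the ratio was 0.14 in replicate pair 1, 0.06 in pair 2 and −0.12 in pair 3. The share was higher in the knockdown library in 78.8% of the long last exons in pair 1, 62.7% in pair 2 and 32.7% in pair 3. In the 7018 shorter last exons the medians were 0.07, 0.03 and −0.12. In pair 1 the median was larger at greater length of the last exon, being 0.03 up to 500 nt, 0.07 between 1000 and 2000 nt, 0.12 between 3000 and 4000 nt, and 0.18 from 6000 nt. In pair 2 it was 0.04, 0.02, 0.05 and 0.09 in the same ranges, and in pair 3 it was −0.10, −0.14, −0.13 and −0.12. The same direction in all 3 pairs was seen in 352 long last exons with a higher share and 147 with a lower one, where 16.6% and 11.2% of all last exons tested had it.

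**Figure D1:**
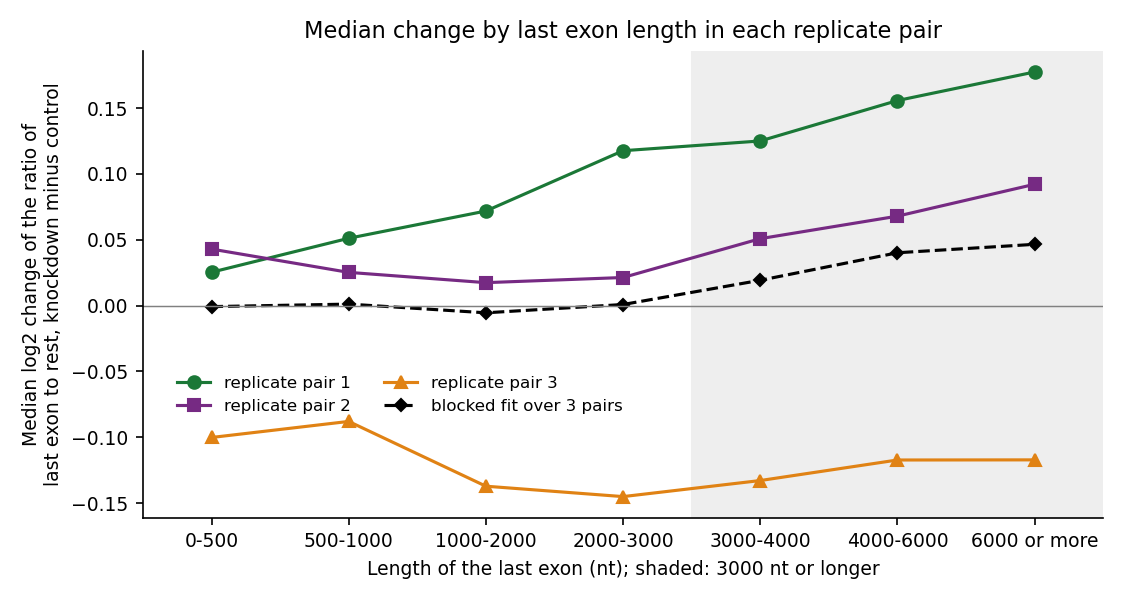
Median log2 change of the ratio of last exon to rest of the gene (knockdown minus control) by length of the last exon in nt, for each replicate pair and for the fit over all 3 pairs with the replicate block, in last exons with at least 50 counts in each library. Pairs 1 and 2 lie above 0 at every length, reaching 0.18 and 0.09 at 6000 nt or more, and pair 3 lies below 0 throughout.

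Control replicate 3 stood apart from the other control libraries. The median share of the long last exons was 64.8, 62.5 and 65.2% in the knockdown libraries and 62.7, 61.4 and 67.0% in the control libraries, a mean of 64.2 ± 1.47% in knockdown cells and 63.7 ± 2.97% in control cells (SD, n = 3 each). The highest of the 6 medians was thus that of control replicate 3, and the groups overlapped. The 1646 first exons with at least 50 counts in each library showed the reverse of the last exons in pair 3. Their median log2 change against the rest of the gene was −0.06, 0.17 and 0.51 in pairs 1 to 3, while internal exons stayed within 0.03 of 0 in each pair. The balance of counts between the start and the end of transcripts thus differed between libraries, and its part in the shares was not tested. Without both libraries of replicate 3, edgeR called 35 long last exons with a higher and 6 with a lower share (2.04 and 0.35%), where 0.588% and 0.19% of all last exons were called. Of the 35, 25 also had a higher share in the pair left out. The median change was then 0.11. Without control replicate 3 alone, in a fit without the block, it was 0.13 and 0 exons were called, against 0.03 and 0 called in the fit of all 6 libraries without the block.

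Across the 1731 exons, the changes in pairs 1 and 2 had a Pearson correlation of 0.20, those in pairs 1 and 3 of 0.06 and those in pairs 2 and 3 of 0.28, against 0.09, −0.03 and 0.21 in the shorter last exons. These are descriptions over exons that share their libraries, and exons are not replicates. GC content went with the change in the pairs that were higher: in the third of matched long last exons with the lowest GC content, 26.6 to 36.3%, the medians were 0.20, 0.10 and −0.13 in pairs 1 to 3. In the third with the highest, 43.0 to 64.8%, they were 0.09, 0.04 and −0.09. The part of base composition in the shares was not tested.

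The 5 last exons that DESeq2 called with a higher share in knockdown cells belong to CYLD, MYO5A, PCDH15, CCDC50 and PGM2L1. None of them was called by edgeR with or without the block when all exons were fitted, and all 5 were called by edgeR without replicate 3. The last exon of CYLD, a deubiquitinase that restrains NF-κB signalling, lies at chr16:49387736-49393347 (hg18, plus strand, 5612 nt). It had 793, 606 and 835 counts in the knockdown libraries and 531, 416 and 553 in the control libraries, which made 41.2, 38.6 and 38.6% of the gene in knockdown cells and 25.5, 25.2 and 26.5% in control cells. The 3 knockdown shares were close to each other and far above the 3 control shares. The log2 change of the ratio was 0.91 ± 0.12 (SE), with an adjusted p of 0.519 in edgeR with the block and of 0.000262 in DESeq2. Unless stated otherwise, adjusted p values of shares are over all exons in edgeR and over last exons only in DESeq2. In edgeR fitted to last exons only, the adjusted p of CYLD was 0.0831. At gene level CYLD had a log2 change of −0.03 ± 0.10 (SE). Its last exon averaged 14.7 CPM in knockdown cells and 10.1 CPM in control cells, and the rest of the gene 22.6 CPM in knockdown cells and 29.02 CPM in control cells. All 15 other exons tested had a lower share in knockdown cells, 7 of them at an unadjusted p below 0.05. Each exon is compared with the rest of its gene, last exon included. A higher share of the last exon thus lowers the shares of the other exons on average. Counts of other exons, here and for the genes below, are therefore not separate evidence.

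**Figure D2:**
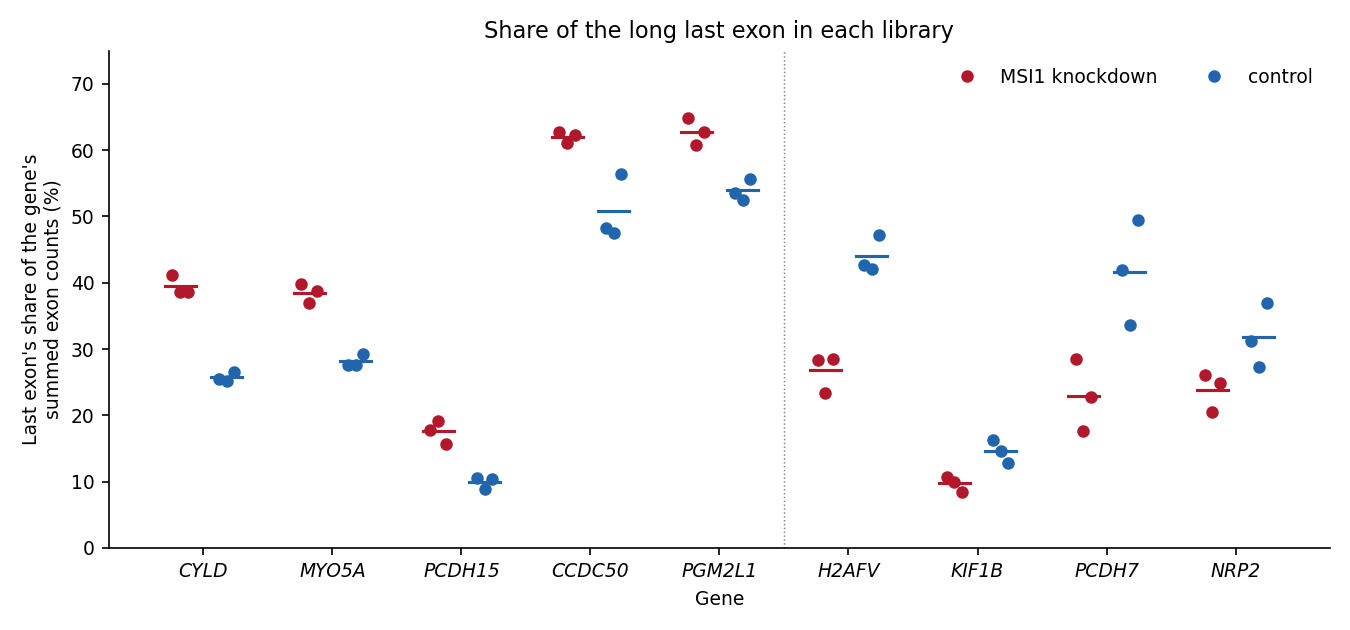
Last exon's share of the gene's summed exon counts (%) in each MSI1 knockdown library (red, left of each pair) and control library (blue, right), for the 9 long last exons that DESeq2 called; points are libraries in the order of replicates 1 to 3 and bars are means. In each gene the 3 knockdown points do not overlap the 3 control points, as for CYLD (38.6 to 41.2% against 25.2 to 26.5%).

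MYO5A, the actin-based motor myosin Va, had shares of 39.8, 36.9 and 38.8% in knockdown cells and 27.6, 27.5 and 29.3% in control cells (chr15:50386775-50393337, hg18, minus strand). The log2 change was 0.68 ± 0.10 (SE), with adjusted p 0.603 in edgeR over all exons, 0.0871 in edgeR over last exons and 0.000354 in DESeq2. The whole gene rose too, by 0.77 ± 0.07 (SE) on the log2 scale at an adjusted p of 0.00278 with the block in edgeR and 0.0517 without it. Of the other 39 exons tested, 32 had a lower share. CCDC50, a coiled-coil protein, has a last exon of 6929 nt at chr3:192592224-192599152 (hg18, plus strand). Its shares were 62.7, 61.1 and 62.2% in knockdown cells and 48.3, 47.5 and 56.4% in control cells. Control replicate 3 was nearest the knockdown libraries here, and the groups did not overlap. The log2 change was 0.66 ± 0.12 (SE), and all 11 other exons had a lower share, 9 of them at an unadjusted p below 0.05.

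PCDH15, a protocadherin known from the tip links of hair cells, had shares of 17.8, 19.2 and 15.7% in knockdown cells and 10.5, 8.84 and 10.4% in control cells. PGM2L1, which makes glucose 1,6-bisphosphate, had 64.8, 60.8 and 62.8% in knockdown cells and 53.5, 52.5 and 55.7% in control cells. The log2 changes were 0.95 ± 0.16 for PCDH15 and 0.53 ± 0.10 for PGM2L1 (SE), and in both the whole gene was called higher with the block only, by 0.47 and 0.68. Over the 18 alternatives tried, the change of each of the 5 stayed above 0, and the lowest value for any of them was 0.22, for PGM2L1. In all 5 the groups did not overlap, so refits of the same libraries could hardly turn the sign. Their adjusted p ran from 4.67e-11 for CCDC50 without replicate 3 to 1.0, and each was called in 2 of the 18.

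The next 5 by p value had higher shares in knockdown cells without being called by DESeq2. They belong to ATP6V1C1 (a subunit of the proton pump of endosomes and lysosomes), MYO5B (a motor of recycling endosomes), BTBD7, INTS6 (a subunit of the Integrator complex, whose last exon overlaps SERPINE3) and HTT. BTBD7 had shares of 62.2, 58.6 and 59.4% in knockdown cells and 51.0, 51.0 and 50.2% in control cells. Its gene rose by 1.21 on the log2 scale, with adjusted p 0.00155 with the block and 0.0110 without it in edgeR. Of the 10 other BTBD7 exons tested, 5 had a higher and 5 a lower share. Exon 4, of 1080 nt, had a larger log2 change (−1.33 ± 0.17, SE) than the last exon (0.55 ± 0.11, SE). The difference in BTBD7 was thus not particular to its last exon. MYO5B had 28.4, 23.8 and 28.7% in knockdown cells and 18.1, 16.5 and 21.01% in control cells, at a gene level change of 0.09. HTT, whose shares are given above, had a higher share in the knockdown library of each pair, but its groups overlapped. Its change of 0.51 was 0.20 without control replicate 3 in a fit without the block. All 5 were called by edgeR without replicate 3. Both members of the myosin V family in this list thus had a higher last exon share in each knockdown library, a pair noticed after the values were seen.

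H2AFV had the lowest p value of all long last exons in edgeR, and PCDH7, KIAA1644 and LOC400931 had larger log2 changes. The gene encodes a variant of histone H2A.Z, and its last exon lies at chr7:44833013-44836287 (hg18, minus strand, 3275 nt, nearly all 3′ UTR). It had 3107, 2178 and 2911 counts in the knockdown libraries and 7797, 5378 and 6132 in the control libraries. Its share was 28.4, 23.4 and 28.5% in knockdown cells and 42.6, 42.1 and 47.2% in control cells, with no overlap. The log2 change of the ratio was −1.11 ± 0.10 (SE), and in single pairs it was −0.90, −1.25 and −1.17. The adjusted p was 0.139 in edgeR over all exons, 0.00571 in edgeR over last exons and 1.47e-12 in DESeq2, and it was below 0.05 in 6 of 18 alternatives, between 2.03e-17 and 1.0 in all. The last exon averaged 53.8 CPM in knockdown cells and 128 CPM in control cells, while the rest of the gene averaged 147 CPM in knockdown cells and 162 CPM in control cells. The 5 other exons each had a higher share in knockdown cells, which a lower share of the last exon brings about on average. The longest of them, exon 5 of 949 nt, just upstream of the last exon, had 32.5, 32.5 and 38.4% in knockdown cells and 25.996, 27.5 and 30.95% in control cells. Expression of the gene as a whole fell by 0.66 ± 0.07 (SE) on the log2 scale, with adjusted p 0.00477 with the block and 0.0696 without it in edgeR.

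KIF1B, a kinesin that carries mitochondria and synaptic vesicle precursors and is made in a short and a long form, differed along its whole 3′ part. Its last exon, exon 48 at chr1:10359190-10364248 (hg18, plus strand, 5059 nt), had shares of 10.7, 9.99 and 8.43% in knockdown cells and 16.2, 14.6 and 12.8% in control cells. The log2 change was −0.66 ± 0.09 (SE), with adjusted p 0.551 in edgeR and 0.000262 in DESeq2. All 25 tested exons between exon 22 and exon 47 also had a lower share in knockdown cells, with a median log2 change of −0.64, and 20 of them had an unadjusted p below 0.05. Together these exons held 9.45, 9.85 and 8.001% of the gene in knockdown cells and 14.5, 16.1 and 12.8% in control cells. Exon 21, at chr1:10285808-10291242, is itself 5435 nt long. It had 46.5, 44.7 and 47.4% in knockdown cells and 36.6, 35.4 and 41.0% in control cells, a log2 change of 0.51 ± 0.10 (SE). In exons 1 to 20 the median change was 0.06. In each pair the long internal exon thus had a higher share in the knockdown library, and the fitted change of each tested exon after it was below 0. This pattern was described after the values were seen, and edgeR over all exons called none of these exons singly.

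**Figure D3:**
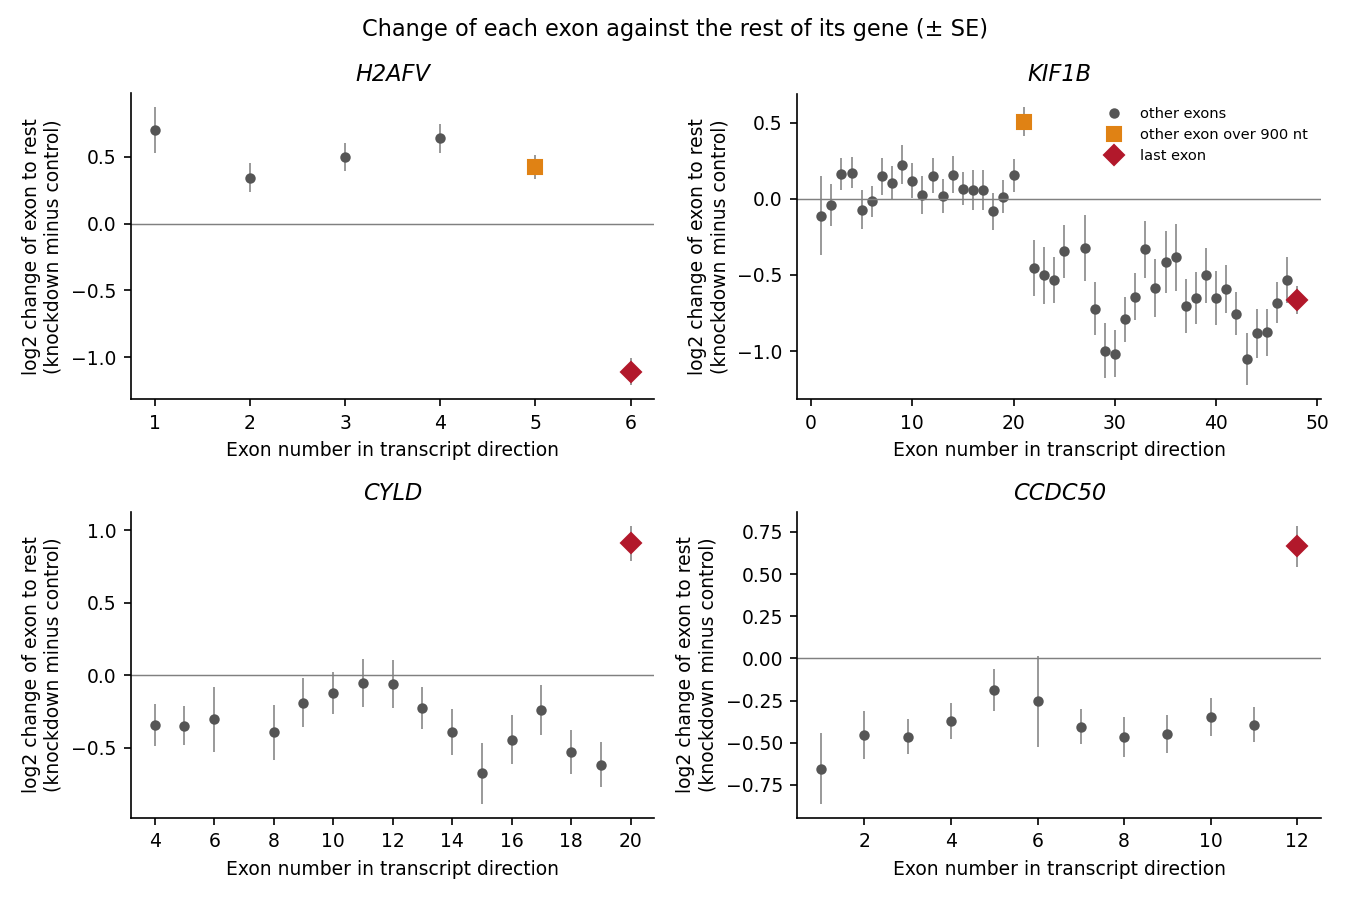
log2 change of each exon's count against the rest of its gene (knockdown minus control, ± SE, edgeR with the replicate block) by exon number for H2AFV, KIF1B, CYLD and CCDC50; red diamonds are last exons and orange squares other exons over 900 nt. In KIF1B exon 21 lies at 0.51 and the tested exons after it lie below 0, while in H2AFV, CYLD and CCDC50 the last exon stands apart from all exons before it. The rest of the gene includes the last exon for every other exon, so the changes within a gene are not independent.

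PCDH7, a protocadherin with 4 exons, had few counts, 116, 87 and 85 in the last exon in knockdown cells and 203, 196 and 183 in control cells. Its shares were 28.4, 17.6 and 22.8% in knockdown cells and 41.9, 33.6 and 49.5% in control cells, a log2 change of −1.27 ± 0.21 (SE). Nearly all the rest lay in the first exon of 4921 nt, which had a higher share in each knockdown library, with a log2 change of 1.13 ± 0.20 (SE) at an unadjusted p of 0.000518. The shares of the first and last exon are nearly complements, so this restates the change of the last exon and is no separate result. NRP2, a receptor for semaphorins and VEGF with membrane-bound and soluble forms, had shares of 26.03, 20.4 and 24.9% in knockdown cells and 31.3, 27.3 and 37.0% in control cells. Here exon 16, of 911 nt and 2 exons upstream, had 10.4, 12.3 and 12.3% in knockdown cells and 7.07, 8.14 and 6.36% in control cells, a log2 change of 0.77 ± 0.12 (SE). Adjusted p for the last exons was 0.879 in edgeR for both genes, and in DESeq2 it was 0.0296 for PCDH7 and 0.0373 for NRP2. The next 6 by p value belong to TULP4, ZNF480, NUCKS1, SGCB, RRAGD and KIAA1147, with log2 changes between −0.68 and −0.38 and adjusted p of 0.879 in edgeR. Without control replicate 3, in a fit without the block, the change of KIAA1147 was −0.03 in place of −0.42, that of TULP4 −0.23 in place of −0.52 and that of NUCKS1 −0.27 in place of −0.42. RRAGD was called without replicate 3 (adjusted p 0.0175 in edgeR). NUCKS1, a nuclear DNA-binding protein, had shares of 80.1, 77.5 and 79.5% in knockdown cells and 81.8, 82.1 and 86.2% in control cells.

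At gene level, the genes with a long last exon were called in both directions, more of them lower than higher. edgeR with the block called 174 of the 1731 higher (10.1%) and 364 lower (21.03%) in knockdown cells, where 7.04% and 10.3% of all 13856 genes tested were called. In the 7018 genes with a shorter last exon and the same count limit it called 7.17% higher and 11.8% lower. Without the block the counts were 26 higher and 37 lower, where 0.772% and 0.902% of all genes were called. These counts depend on how libraries are scaled. With DESeq2's size factors in place of TMM factors, edgeR with the block called 206 of the 1731 higher and 291 lower. Of all genes it then called 1163 higher and 1115 lower. With TMM factors, the median log2 change was −0.11 over the genes with a long last exon and −0.05 over those with a shorter one. By length, 6.61% of genes were called lower for last exons up to 500 nt, 13.6% between 1000 and 2000 nt, and 20.1% between 3000 and 4000 nt, and the share called higher was 4.48, 7.31 and 9.08% in the same ranges. The depth of a gene bears on whether it is called, and its part in these shares was not tested.

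The share of the last exon and the level of the gene were set side by side. Over the 1712 exons tested, the Spearman correlation of these log2 changes was 0.16, across exons that share libraries and, in part, counts. Of the 9 exons DESeq2 called, the gene was called by edgeR with the block in 6: MYO5A, PCDH15, CCDC50 and PGM2L1 higher, and H2AFV and KIF1B lower. MYO5A, PCDH15, PGM2L1 and H2AFV were called with the block only. With the block, 17.3% of all genes tested and 538 of the 1731 genes with a long last exon were called. Without it 63 of the 1731 were. No link between share and gene level is read from these 9. CYLD, PCDH7 and NRP2 were not called at gene level.

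**Figure D4:**
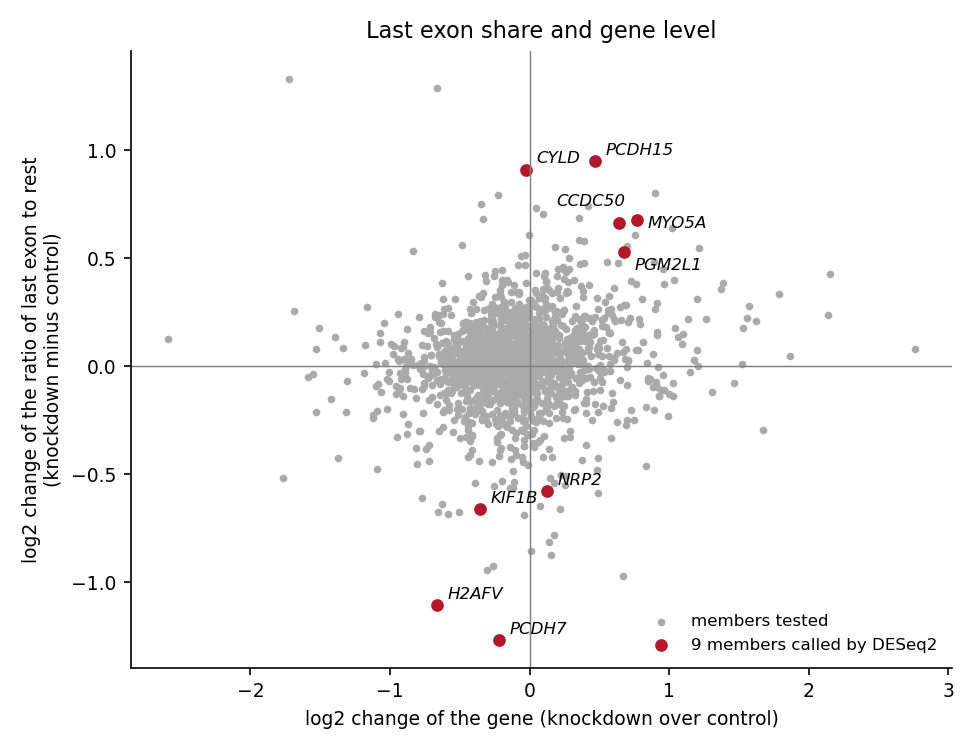
log2 change of the ratio of last exon to rest of the gene (knockdown minus control) against the log2 change of the gene (knockdown over control), both from edgeR with the replicate block, for the 1712 long last exons tested. Red points are the 9 called by DESeq2, of which CYLD has a gene level change of −0.03 and H2AFV one of −0.66.

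Long last exons were also grouped by the function of their genes, and none in these groups was called by edgeR over all exons. DESeq2 called PCDH7 in the cadherin list and NRP2 in the axon guidance list. The lists were compiled with earlier results of these data known. The counts below stand against the 16.6% of all last exons tested that had a higher share in all 3 pairs and the 11.2% that had a lower one, and nothing particular to a list is read from them. Of 22 chromatin regulators with a long last exon, 7 had a higher share in all 3 pairs and 0 a lower one, KDM2A, a histone demethylase, being first by p value with 46.1, 46.8 and 47.9% in knockdown cells and 44.7, 43.4 and 41.3% in control cells. Of 23 ubiquitin ligases and deubiquitinases, 6 were higher and 4 lower in all pairs. Of 16 genes of TGF-beta, BMP and Wnt signalling, 4 were higher and 1 lower, and of 13 of receptor tyrosine kinase signalling 3 were higher and 2 lower. Of 22 tested genes of membrane traffic and the cytoskeleton 5 were higher and 1 lower, of 8 axon guidance genes 0 and 1, of 2 extracellular matrix genes 1 and 0, and of 7 genes of cholesterol and fatty acid metabolism 0 and 0. Of 7 integrin and focal adhesion genes 2 were higher and 1 lower, and of 7 cadherin and cell adhesion genes 2 were higher and 2 lower. TLN2, which links integrins to actin, had 25.9, 24.4 and 25.3% in knockdown cells and 23.2, 18.99 and 22.7% in control cells. NEGR1, a cell adhesion molecule of neurons, had 72.7, 72.0 and 75.7% in knockdown cells and 61.4, 70.0 and 71.1% in control cells. The groups did not overlap in KDM2A, TLN2 or NEGR1, and all of them had an adjusted p of 0.879 in edgeR.

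The factors that act on 3′ ends and 3′ UTRs were examined at gene level. Of 27 cleavage and polyadenylation factors tested, 0 were called higher and 3 lower by edgeR with the block. For this count and those of the next lists, the background is the 7.04% of all genes tested that were called higher and the 10.3% called lower. NUDT21, the subunit of the cleavage factor whose loss is known to shorten 3′ UTRs, had 180, 152 and 208 CPM in knockdown cells and 215, 206 and 341 CPM in control cells, a log2 change of −0.47 ± 0.10 (SE, adjusted p 0.0292). The highest value was that of control replicate 3. Its own long last exon kept 64.4, 60.7 and 65.8% in knockdown cells and 61.7, 62.5 and 68.2% in control cells. SSU72, a phosphatase of RNA polymerase II, and PCF11, a termination factor, fell by 0.40 and 0.37, PCF11 being called in 2 of 7 alternatives. Of 30 genes of deadenylation and decay, 1 was called higher and 9 lower. CNOT6, a deadenylase, rose by 0.51 (adjusted p 0.0118), whereas the decapping cofactor DCP1A fell by 0.60 (0.0116), CNOT4 by 0.62 (0.0118) and UPF3B, of nonsense-mediated decay, by 0.51 (0.0146).

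Of 14 genes of the microRNA machinery, 0 were called higher and 3 lower. TNRC6A, a partner of Argonaute, had 258, 249 and 249 CPM in knockdown cells and 391, 359 and 425 CPM in control cells, a log2 change of −0.63 ± 0.08 (SE, adjusted p 0.00561). XPO5, which exports microRNA precursors, and TNRC6B fell by 0.35 and 0.31, TNRC6B being called in 1 of the 7 alternatives tried. Of 37 other RNA-binding proteins of 3′ UTRs tested, MSI1 included, 5 were higher and 6 lower. FXR1 rose by 0.71 and PUM2 by 0.67, and CELF1 fell by 0.51. None of the genes of these 4 lists was called by edgeR without the block, with adjusted p of 0.0520 for TNRC6A, 0.364 for NUDT21 and 0.101 for FXR1. None of the long last exons within these lists was called, and those of DICER1, DCP2 and PPP1CB had shares that overlapped between groups. Of 7 in the decay list, 4 had a higher share in all 3 pairs and 0 a lower one. The counts were 1 and 0 of 3 cleavage factors, 0 and 0 of 4 microRNA genes, and 0 and 1 of 11 other RNA-binding proteins. Of all last exons tested, 16.6% and 11.2% did so, and nothing particular to a list is read from these counts.

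The iCLIP lists gave a readout that the choice of exons had not used. The long last exons held 3.86, 6.38 and 8.68% of the positions in iCLIP lists 1, 2 and 3, and 825 of the 4446 positions present on the same strand in all 3 lists (18.6%). Of the long last exons, 83 (4.79%) had at least 1 such position, against 164 of 7018 shorter ones (2.34%). Per kb the numbers were 0.102 in the long and 0.0807 in the shorter last exons. The order per kb was the reverse for positions in at least 2 lists, at 0.731 in the long and 0.773 in the shorter last exons, and for list 1 alone, at 8.36 and 9.57. Positions follow expression, so the sets were also compared within 3 ranges of RNA-seq level. In the highest range, 12.7% of the long and 4.05% of the shorter last exons had a shared position, at 0.320 and 0.162 per kb. Median lengths there were 3901 and 930 nt, and a longer exon has more room for a position. SCD and CD44 held 520 of the 806 positions of the long last exons in this range. The per kb values of the long set, 0.102 over all ranges included, thus rest mostly on these genes. Outside them the long last exons held 305 of the 825 positions. The higher values per kb are therefore not read as a trait of the long set. In the middle range the values were 1.39 and 0.20% of exons and 0.0030 and 0.0015 per kb, from only 8 and 4 positions. In the lowest range they were 0.35 and 0.09% of exons, but per kb the long last exons had fewer, 0.0039 against 0.0059, from 11 positions in each set. Within the long last exons, the 825 positions were spread over the length, with 111, 231, 127, 159 and 197 in 5 equal parts from its start to its end.

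These positions were concentrated in a few genes. The last exon of SCD, the stearoyl-CoA desaturase that makes monounsaturated fatty acids, had 263, and that of CD44, a receptor for hyaluronan, had 257, together 63.0% of all. Then came ADAM19, a membrane metalloprotease, with 62, DCBLD2, a transmembrane receptor, with 23, CANX, the chaperone calnexin, and TTYH3 with 16 each, MAP1B, which binds microtubules, with 15, SLC7A11, the cystine transporter, and the integrin subunit ITGAV with 13 each, and ABHD2 with 10. The first Musashi-type word of the 3′ UTR of SCD, GTAGT, lies 446 nt from its start, and the UTR holds 11 such words, while that of CD44 holds 4. Of the 83 exons, 51 had a single position.

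**Figure D5:**
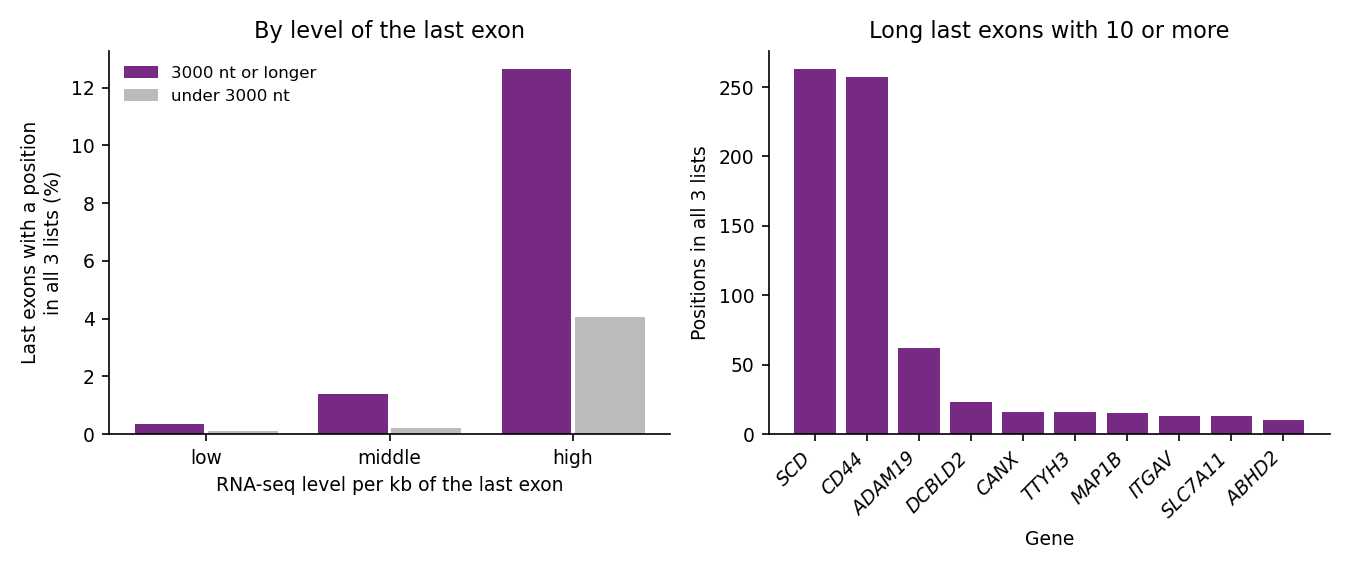
Left, percentage of last exons with a nucleotide position in all 3 MSI1 iCLIP lists, for exons of 3000 nt or longer and under 3000 nt in 3 ranges of RNA-seq level per kb. Right, number of such positions in the 10 long last exons with 10 or more, where SCD (263) and CD44 (257) stand far above ADAM19 (62).

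In the last exons with the most iCLIP positions the shares of knockdown and control cells lay close together. SCD had shares of 76.5, 73.9 and 76.3% in knockdown cells and 74.4, 73.8 and 77.8% in control cells, a log2 change of 0.02 ± 0.09 (SE). CD44 had 58.9, 57.1 and 63.3% in knockdown cells and 56.2, 57.1 and 65.6% in control cells, a log2 change of 0.00 ± 0.09 (SE). In both, the groups overlapped, and control replicate 3 was the highest library. Among ADAM19, DCBLD2, CANX, TTYH3, MAP1B, SLC7A11, ITGAV and ABHD2 the log2 change lay between −0.12 and 0.12. Of those refitted under the alternatives, SLC7A11 was called without replicate 3, with a change of 0.34 (adjusted p 0.0185 in edgeR). The median change was 0.03 over the 83 exons with a shared position and 0.03 over those without, and 5 of the 83 had an unadjusted p below 0.05, each with 1 position, NRP2 and NUCKS1 among them. Of the 9 last exons called by DESeq2, only NRP2 had a shared position. At gene level 11 of the 83 were called higher and 15 lower by edgeR with the block, where 7.04% and 10.3% of all genes tested were called. Of all genes with a long last exon, 10.1% were called higher and 21.03% lower. Without the block 7 were called in either direction, where 1.67% of all genes and 63 of the 1731 with a long last exon were. Of the 83, 73 lay in the highest range of RNA-seq level, and depth bears on calling. Nothing particular to the 83 is read from these counts. DCBLD2 rose by 0.57 (adjusted p 0.00525 with and 0.0908 without the block) and MAP1B fell by 0.71 (0.00263 with and 0.0391 without), while SCD and CD44 were not called, with log2 changes of 0.23 and −0.19. In bulk RNA, fewer messages per cell and fewer cells that make them cannot be told apart.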

How the data were processed

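RNA-seq values are raw read counts that the authors deposited for each gene and each exon of a library. For iCLIP the authors deposited 1 list of single-nucleotide positions a sample with the authors' own p-value per position, used here only to limit positions in an alternative. Genome positions refer to hg18 according to the submitters' processing notes. The sources used here name no aligner, counter, strand setting or peak caller. Coordinates are counted from 1.

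Sample titles gave each library its group and replicate number. The last exon's count and the summed count of the other exons made 12 columns for the quasi-likelihood test of edgeR 4.0.16 (R 4.3.3), with a coefficient per library, a replicate block that left 2 residual degrees of freedom and Benjamini-Hochberg adjustment. Exons entered with 10 or more counts in at least 3 libraries for exon and rest. Gene counts were tested with edgeR after TMM and filterByExpr, with the same block. DESeq2 1.42.0 and limma 3.58.1 were alternatives. These tests were tried on simulated data, in which libraries did not differ in the balance of counts along transcripts. In the share test, edgeR with the block recovered 74.2% of planted 1.5-fold and 95.5% of planted 2-fold changes of the ratio. DESeq2 recovered 62.1 and 94.0% of them, limma 0 and 35.8%, and diffSpliceDGE 0 and 1.49%. In genes without a planted change, false calls were 36 for edgeR, 5 for limma and 0 for diffSpliceDGE, of 120583 exons fitted. DESeq2 made 1, of 10006 last exons fitted. All simulated exons had the same dispersion, so these recoveries need not hold for the real libraries. Shares of single pairs used a pseudocount of 0.5 in the log2 ratio. CPM at gene level uses TMM factors, and CPM of exons uses the sum of exon counts.

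The replicate block follows from the pairing asked of the shares. At gene level same-numbered libraries deviated from their groups together, with correlations of 0.318, 0.732 and 0.751, all above 0.1. For the last exon ratio the correlations were 0.075, 0.383 and 0.430, that of replicate 1 lying below 0.1. Control replicate 1 resembled knockdown replicate 2 more closely than its own number, both at gene level (0.494) and for the last exon ratio (0.279). No library pair agreed within sampling noise. Per-gene chi-square was 22.7 or more.

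Members and gene lists were chosen with earlier results of these data known. Named are the 10 exons per direction with the lowest p in the share test (same sign in all pairs, at least 200 counts in the rest of the gene), the extremes of share and length, the 8 with most shared iCLIP positions (ties added), the exons next to each limit, and up to 3 or 4 genes a list by p value. Some results are not reported here.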

Additional observations from a re-analysis of the deposited data

How the results depend on the processing

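Settings were changed one at a time, except that DESeq2 and the centring per library were also limited to last exons, and the block was also dropped where a single library was left out. The median log2 change of the long last exons (0.03) moved by less than the SD of the 3 pair medians (0.138) under all 23 alternatives tried, from −0.03 to 0.13. This SD is itself larger than the median, so staying within it says little. The sign changed without replicate 1 (−0.03) and, with no block, without control replicate 2 (−0.03). The highest value, 0.13, was that without control replicate 3. The count of long last exons called was 0 in edgeR with the replicate block and stayed 0 without the replicate block, in limma, in diffSpliceDGE, without overlapping exons and under the other limits on length (2000 or 4000 nt) and counts (20, 100, or a mean of 50). It was 9 in DESeq2, and 1 (H2AFV) in each of 4 edgeR fits: over last exons only, with ratios centred per library, with the first exon left out of the rest, and with no filter. It ran from 0 to 41 when 1 replicate number was left out, 41 being without replicate 3, and was 0 when a single library was left out without the block. All 9 calls of DESeq2 were among these 41. Over all exons, 6 were called with no filter. At gene level, 2398 genes and 538 with a long last exon were called with the block, against 232 and 63 with no replicate block. Leaving out 1 replicate number gave 1042 to 4456 genes and 224 to 835 with a long last exon, the lowest without replicate 2 and the highest without replicate 3. DESeq2's size factors gave 1163 genes higher and 1115 lower, against 976 and 1422 with TMM. iCLIP positions per kb of long last exon were 0.102 in all 3 lists, 0.731 in at least 2, and 0.0036 in all 3 with the authors' p of at most 0.05. Of the values of named genes under alternatives, 561 kept the side of the threshold, 30 passed it and 31 no longer did, and none of the called ones changed sign. The exons named by p value had the same sign in all pairs, so a kept sign says little for them. The causes were not tested. With 3 libraries a group and 2 residual degrees of freedom, calls in the share test rest on few degrees of freedom. The count of 0 in limma and diffSpliceDGE says little, since both recovered few planted changes in the simulated data. Exons with few counts outside the last exon, such as those of KIAA1644, have wide errors.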
